A study of Mus musculus with 22 samples.

Results

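The effect of carrying Tol that was common to thymus, cerebrum and cerebellum was measured over all 22 libraries of the series, 10 from Tol mice and 12 from WT mice. Tol mice are C57BL/6 animals heterozygous for a transgene that codes for scrambled pieces of fluorescent reporter proteins, luciferase and Cre recombinase, placed 3′ of Col1a1 and driven by the ubiquitous CAG promoter. WT mice were littermates without the transgene, and no treatment is named for the sequenced mice of either genotype. The thymus and the cerebrum each had 4 Tol and 4 WT libraries, and the cerebellum had 2 Tol and 4 WT libraries. Each library was made from polyA RNA of a frozen organ that was not sorted, so that fewer cells of a type and less RNA per cell cannot be told apart. The transgene was placed by cassette exchange in embryonic stem cells, so that a single locus stands for Tol. The sequencing asked whether the unfolded foreign protein stressed the cells or otherwise altered their transcripts.

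A protein without a stable fold can engage quality control systems that act in most cells. In the cytosol, heat shock factor 1 induces chaperones, and in the endoplasmic reticulum the sensors IRE1, ATF6 and PERK induce folding enzymes and ATF4 targets. Transcripts also follow the state of the animal. The clock genes Per1 and Per2 cycle over the day and respond to glucocorticoids, and immediate early genes follow recent neuronal activity and handling. A gene was described as having a common effect when a single Tol coefficient, fitted beside a separate baseline for each organ, differed from 0.

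Total counts per library lay between 14543698 and 34776973. The Tol transcript itself was at 23.5 ± 2.83 CPM (SD, n = 4; CPM is a gene's count scaled to a common library total) in Tol thymus, 172 ± 13.2 CPM (n = 4) in Tol cerebrum and 172 ± 34.6 CPM (n = 2) in Tol cerebellum, and no WT library held more than 2 of its counts. Thymocyte transcripts (Cd4, Cd8a, Cd3e, Rag1, Dntt and Ptcra) summed to 6582 to 8422 CPM in Tol thymus and 8192 to 9330.2 CPM in WT thymus. In the brain libraries they summed to at most 45.7 CPM. What part the thymocyte difference had in the gene effects was not tested. The cerebellum library labelled Tol 2 stood apart from its organ, since the summed level of Pcp2, Gabra6, Zic1, Cbln1 and Calb1 was 209 CPM. The other cerebellum Tol library stood at 4384 CPM, the WT cerebellum at 1876 to 4154 CPM and the cerebrum at 135 to 217 CPM. Neurod6, Tbr1 and Drd1, which mark forebrain neurons, summed to 6.88 to 7.52 CPM in the Tol cerebellum libraries and 7.89 to 9.17 CPM in the WT ones, against 278.1 to 366 CPM in the cerebrum. Choroid plexus markers ranged from 17.04 to 4952 CPM among the WT cerebellum libraries and from 17.3 to 21.8 CPM in the Tol ones. The count of calls and many of the genes and lists are therefore also given without the library labelled cerebellum Tol 2, which left 1 Tol library in that organ. The organ effects and organ medians are given with it.

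Of 14086 genes measured in all 3 organs, 28 had a common Tol effect at an edgeR adjusted p under 0.05, which is 0.199% of the genes tested. Of these, 26 were lower in Tol mice (0.185%) and 2 were higher (0.0142%), while the 1768 genes with an unadjusted p under 0.05 were split evenly, 881 higher and 887 lower. Without the library labelled cerebellum Tol 2, 24 genes passed, 4 higher and 20 lower, and 20 of them were among the 28. The sign within each organ was checked by fitting the organs one at a time. All 28 genes kept 1 sign in the 3 organs, as did 27.1% of all genes tested. The common fit favours genes with 1 sign, so this count describes the genes and does not test them. For 8 of the 28, the Tol and WT libraries did not overlap in any organ, against 0.071% of all genes. These 8 were Acer2, Mid1, Plat, Tns3, Per1, Zfp276, Txlna and Ctnnd1. For Ctnnd1 the cerebrum groups nearly met, with Tol up to 112.12 CPM and WT from 112.14 CPM, and the effect there was -0.073. Taken by organ, the libraries did not overlap for 16 of the 28 in the thymus, 21 in the cerebrum and 24 in the cerebellum, against 12.5%, 6.5% and 11% of all genes. In the cerebellum the count rests on 2 Tol libraries. The 28 genes were called on these same libraries, so the counts without overlap describe the genes and do not test them. Libraries of different organs may come from the same mice, which the test treats as independent. With thymus and cerebrum averaged into 1 value per presumed mouse, 4 against 4, limma called 0 genes (1843 at an unadjusted p under 0.05), and without the cerebrum libraries edgeR called 0 and without the thymus libraries 3.

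The effects were small. Among the 28, only Mid1 and Gm47283 changed by more than 1 on the log2 scale, and 21 of the 28 changed by less than 0.5. The largest of the 3 organ effects was in the cerebrum for 13 genes, in the thymus for 9 and in the cerebellum for 6. Fitted alone, the thymus gave 64 genes at an adjusted p under 0.05 (0.454%), 6 of them among the 28, whereas the cerebrum and the cerebellum alone gave 0 (0%). At an unadjusted p under 0.05, the organs alone gave 3728, 1407 and 503 genes in that order, and 22, 24 and 19 of the 28. The biological coefficient of variation between libraries was 10% in the thymus, 15% in the cerebrum and 27.3% in the cerebellum. The median transcript length was 2449 bases for the genes that fell and 1479 bases for all genes tested, and over all genes the common effect had a Spearman correlation of -0.097 with transcript length, across genes that are not independent. With a trend on length and GC content removed, 30 genes passed, 21 of them among the 28.

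**Figure D1:**
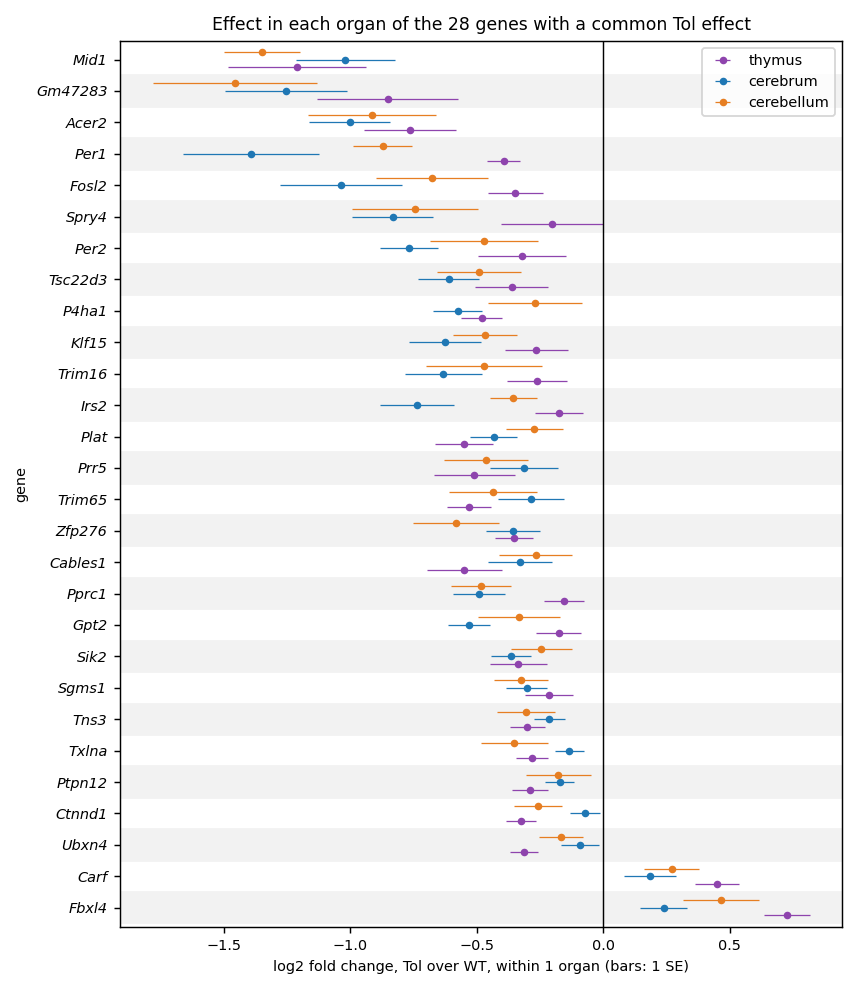
Log2 ratio of Tol to WT (x axis) for the 28 genes with a common Tol effect (y axis), fitted within the thymus, the cerebrum and the cerebellum, with bars of 1 SE. All points of the 26 lower genes lie left of 0 and those of Carf and Fbxl4 right of 0, a pattern that the common fit favours. The cerebellum point of Gm47283 and the cerebrum point of Per1 reach furthest, and the cerebrum points of Per1, Irs2 and Fosl2 lie further left than their thymus points.

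Acer2 and Sgms1, enzymes of sphingolipid metabolism, were among the genes that fell. Acer2, the Golgi ceramidase that cleaves ceramide to sphingosine, had the lowest p of all genes. Acer2 in the thymus reached 3.05, 1.98, 3.85 and 3.41 CPM in Tol libraries and 5.65, 5.86, 5.05 and 4.43 CPM in WT libraries. The cerebrum gave 5.74, 6.14, 6.79 and 8.13 CPM in Tol and 14.6, 12.8, 15.8 and 10.3 CPM in WT libraries. Acer2 levels in the cerebellum were 6.54 and 9.25 CPM in Tol and 17.05, 18.4, 12.8 and 12.2 CPM in WT. Each Tol library lay below every WT library of its organ. The common log2 fold change was -0.90 ± 0.12 (SE) with an edgeR adjusted p of 0.00173, and the organ effects were -0.76 in the thymus, -1.0 in the cerebrum and -0.91 in the cerebellum. Without the library labelled cerebellum Tol 2 it was -0.94 (edgeR adjusted p = 0.00243). Sgms1, which makes sphingomyelin from ceramide, fell by 0.28 on the log2 scale (edgeR adjusted p = 0.0162). Its levels in Tol and WT averaged 42.1 ± 2.78 and 52.1 ± 4.41 CPM in the cerebrum (SD, n = 4 each), and in the thymus the 2 genotypes overlapped.

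Plat, P4ha1, Tns3, Ctnnd1 and Ptpn12 also fell, and are described together without a list having been fixed for them. Plat, the tissue plasminogen activator, was at 6.48, 6.70, 6.33 and 6.42 CPM in Tol thymus and 9.18, 11.8, 8.57 and 8.47 CPM in WT thymus. In the cerebrum it was at 31.5, 29.5, 34.9 and 32.3 CPM in Tol and 44.3, 40.8, 38.5 and 49.9 CPM in WT, and in the cerebellum at 53.4 and 43.3 CPM against 60.9, 59.1, 60.98 and 55.5 CPM. No Tol library reached the WT range in any organ, and the common effect was -0.44 ± 0.063 (SE), edgeR adjusted p = 0.00367. P4ha1, the catalytic subunit of a collagen prolyl hydroxylase and a known hypoxia target, was at 30.1 ± 3.42 CPM in Tol against 41.9 ± 2.37 CPM in WT thymus (SD, n = 4 each). In the cerebrum it was at 43.1 ± 4.71 against 64.4 ± 5.47 CPM (n = 4 each), and in the cerebellum the groups overlapped, with Tol at 27.4 and 32.6 CPM and WT at 31.7, 44.1, 31.3 and 39.9 CPM. Its common effect was -0.47 ± 0.071 (SE) (edgeR adjusted p = 0.00482), and it was the 1 member of 18 tested hypoxia and glycolysis genes that passed. Tns3, a focal adhesion protein, fell by 0.27 on the log2 scale with an SE of 0.043 (edgeR adjusted p = 0.00675). Tns3 lay between 96.01 and 116.9 CPM in Tol thymus and between 124.7 and 136 CPM in WT thymus. Ctnnd1, which encodes p120 catenin at cadherin junctions, fell by 0.22, and Ptpn12, a phosphatase of focal adhesion proteins, also fell by 0.22 (edgeR adjusted p = 0.0310 and 0.0444). With the library labelled cerebellum Tol 2 left out, Plat, P4ha1 and Tns3 stayed under 0.05 at adjusted p of 0.0107, 0.00243 and 0.0192, whereas Ctnnd1 and Ptpn12 went to 0.0710 and 0.0808. Ctnnd1 overlaps the gene model Gm28635 on its own strand, so that counts could be split between them.

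**Figure D2:**
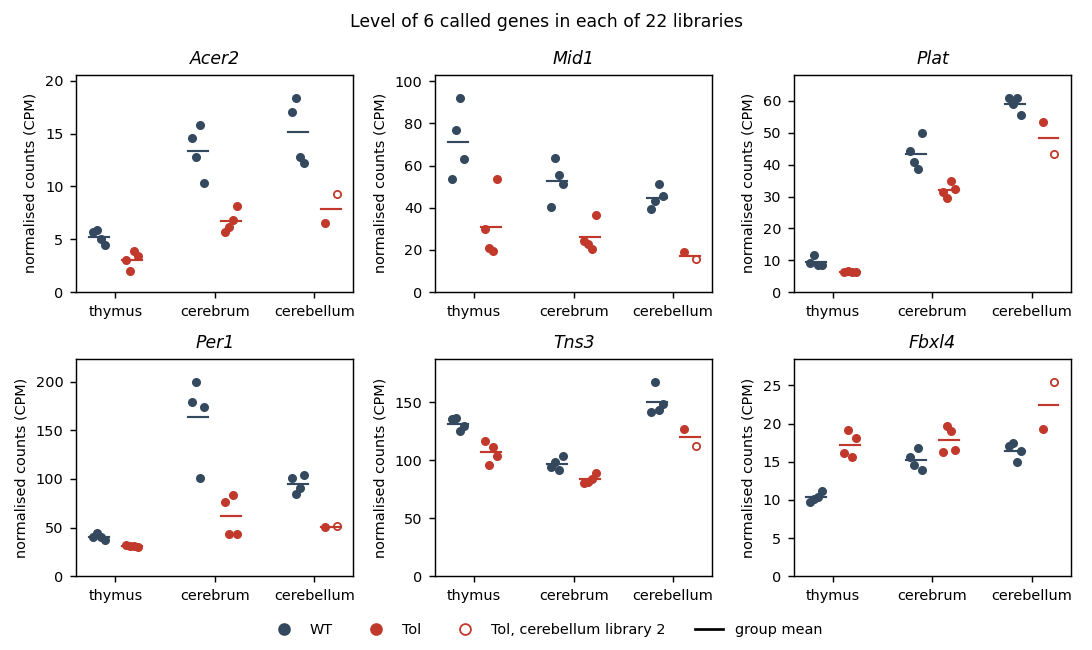
Normalised counts in CPM (y axis, linear, from 0) of Acer2, Mid1, Plat, Per1, Tns3 and Fbxl4 in each library, by organ (x axis), with WT and Tol as separate points and the group mean as a line. The open point is the library labelled cerebellum Tol 2. Tol points lie below WT points in every organ for the first 5 genes, and above them in thymus and cerebellum for Fbxl4.

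The 2 largest effects belonged to genes at the border of the pseudoautosomal region, the stretch shared by the X and Y chromosomes. Mid1 (chromosome X, 169685199 to 170005736 in GRCm38), a microtubule-bound ubiquitin ligase, spans that border in C57BL/6 mice. Mid1 in the thymus reached 29.8, 20.7, 19.4 and 53.5 CPM in Tol libraries and 53.7, 76.7, 92.1 and 63.05 CPM in WT libraries. The cerebrum gave 24.4, 22.7, 20.3 and 36.5 CPM in Tol and 40.3, 63.5, 55.4 and 51.2 CPM in WT libraries. For the cerebellum, the values were 18.8 and 15.9 CPM in Tol and 39.4, 43.1, 51.1 and 45.7 CPM in WT. The groups did not overlap in any organ, although the highest Tol and the lowest WT thymus library were nearly level. The common effect on Mid1 was -1.18 ± 0.16 (SE), edgeR adjusted p = 0.00173, and -1.14 (edgeR adjusted p = 0.00402) without the library labelled cerebellum Tol 2. Gm47283 (chromosome Y, 90784738 to 90816464), a gene model beside the same region, fell by 1.15 on the log2 scale with an SE of 0.19 (edgeR adjusted p = 0.0102). Its common effect was -1.11 without the library labelled cerebellum Tol 2. Gm47283 in the thymus reached 49.7, 56.7, 43.4 and 100.4 CPM in Tol libraries and 70.8, 112, 172 and 95.4 CPM in WT libraries. The cerebrum gave 18.7, 23.4, 15.1 and 25.4 CPM in Tol and 29.3, 60.8, 60.1 and 46.7 CPM in WT libraries. Gm47283 levels in the cerebellum were 22.6 and 22.7 CPM in Tol and 44.3, 46.4, 84.7 and 76.5 CPM in WT. The thymus groups overlapped for Gm47283 and those of the other organs did not. For both genes, the library numbered Tol 4 was the highest of the 4 Tol libraries in thymus and in cerebrum, and the library numbered WT 1 was the lowest of the 4 WT libraries in all 3 organs. Whether libraries with 1 number stem from 1 mouse is not in the labels. Gm47283 has related copies in this region, so its estimated counts are uncertain. The sex of the mice is not in the labels. Ddx3y and Eif2s3y, which lie on the Y chromosome outside that region, had at most 10 and 7 counts in any library. Counts this low mark every library as female, and the Y chromosome position of Gm47283 is only that of the annotation.

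Of the core clock, Per1 and Per2 fell. They encode repressors of the CLOCK and ARNTL activators. Per1 in the thymus reached 32.1, 31.1, 31.3 and 29.6 CPM in Tol libraries and 40.3, 44.7, 40.3 and 37.7 CPM in WT libraries. The cerebrum gave 76.7, 43.6, 83.5 and 43.8 CPM in Tol and 179, 199.8, 101 and 174 CPM in WT libraries. For the cerebellum, the values were 50.8 and 51.5 CPM in Tol and 101, 84.4, 90.8 and 104 CPM in WT. Tol libraries lay below WT libraries in each organ. The common effect on Per1 was -0.90 ± 0.15 (SE) with an edgeR adjusted p of 0.0102, and the organ effects were -0.39 in the thymus, -1.39 in the cerebrum and -0.87 in the cerebellum, which differ in size at an unadjusted p of 0.00640 for the test by organ. Per2 had a common effect of -0.55 ± 0.10 (SE) (edgeR adjusted p = 0.0239). The cerebrum gave 31.3, 27.01, 37.01 and 30.2 CPM in Tol and 49.6, 47.96, 55.4 and 62.00 CPM in WT libraries. For the cerebellum, the values were 17.4 and 27.00 CPM in Tol and 31.4, 26.4, 34.2 and 33.2 CPM in WT. The groups of Per2 were apart in the cerebrum and overlapped in the thymus and the cerebellum. Leaving out the library labelled cerebellum Tol 2, Per1 was at -0.90 (edgeR adjusted p = 0.0193) and Per2 at -0.63 (edgeR adjusted p = 0.0112). The clock list held 23 genes, of which 22 were tested, 2 fell and none rose, with 14 negative effects and a median of -0.033 on the log2 scale, against 47.9% negative and a median of 0.0061 over all genes. Among the others, Nfil3 (-0.39), Bhlhe40 (-0.33) and Cry1 (-0.28) did not pass, with edgeR adjusted p of 0.229, 0.250 and 0.360. Dbp, an output gene of the clock, had a positive effect of 0.21 that did not pass (edgeR adjusted p = 0.335).

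Tsc22d3, which encodes the glucocorticoid-induced leucine zipper protein, fell, and every listed glucocorticoid target had a negative common effect. Tsc22d3 in the thymus reached 94.3, 118, 124 and 109 CPM in Tol libraries and 137, 145, 184 and 104 CPM in WT libraries. The cerebrum gave 55.4, 67.8, 68.4 and 57.2 CPM in Tol and 97.6, 117, 85.4 and 81.8 CPM in WT libraries. Tsc22d3 levels in the cerebellum were 80.6 and 95.8 CPM in Tol and 127, 151, 112 and 114 CPM in WT. The thymus groups overlapped and those of the cerebrum and cerebellum did not. The common effect on Tsc22d3 was -0.49 ± 0.092 (SE), edgeR adjusted p = 0.0239, and -0.51 (edgeR adjusted p = 0.0320) without the library labelled cerebellum Tol 2. Klf15, a transcription factor that glucocorticoids induce, fell by 0.46 with an SE of 0.083 (edgeR adjusted p = 0.0162). Klf15 averaged 5.10 ± 0.507 CPM in Tol and 6.12 ± 0.667 CPM in WT thymus, 14.2 ± 1.89 and 21.97 ± 3.92 CPM in the cerebrum (SD, n = 4 each), and 16.1 ± 1.52 (n = 2) and 22.6 ± 1.46 CPM (n = 4) in the cerebellum. The list of the glucocorticoid receptor gene Nr3c1 and its targets had 17 members, all tested. Only Tsc22d3 among them passed the adjusted threshold, but all 17 effects were negative and 11 had an unadjusted p under 0.05, which is 64.7% of the list against 12.6% of all genes. The median effect was -0.30 on the log2 scale, with -0.17 in the thymus, -0.47 in the cerebrum and -0.49 in the cerebellum. When the library labelled cerebellum Tol 2 was dropped, the 17 effects stayed negative, 13 had an unadjusted p under 0.05 and the median was -0.34. This list was chosen with earlier results of these data known and its counts are a description.

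The members did not move evenly in the 3 organs. Sgk1, a kinase induced by glucocorticoids, had effects of 0.020 in the thymus, -0.81 in the cerebrum and -1.15 in the cerebellum (edgeR adjusted p = 0.126 for the common effect). The metallothioneins Mt1 and Mt2 had common effects of -0.30 and -0.51, with 0.053 and -0.16 in the thymus (edgeR adjusted p = 0.211 and 0.108). Klf9, another glucocorticoid-induced factor, ran the other way, with -0.83 in the thymus and -0.093 in the cerebrum. Fkbp5, the chaperone that restrains the receptor, was at -0.32 in the thymus, -0.40 in the cerebrum and 0.53 in the cerebellum. The cerebellum value of Fkbp5 rested on the library labelled cerebellum Tol 2, at 22.6 CPM, while the other Tol library at 7.603 CPM lay below the WT mean of 10.6 CPM. Nr3c1 itself had a common effect of -0.11 (edgeR adjusted p = 0.646). Cdkn1a, a cell cycle inhibitor also listed among p53 targets, had a common effect of -0.68 that missed the threshold at an edgeR adjusted p of 0.0849.

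**Figure D3:**
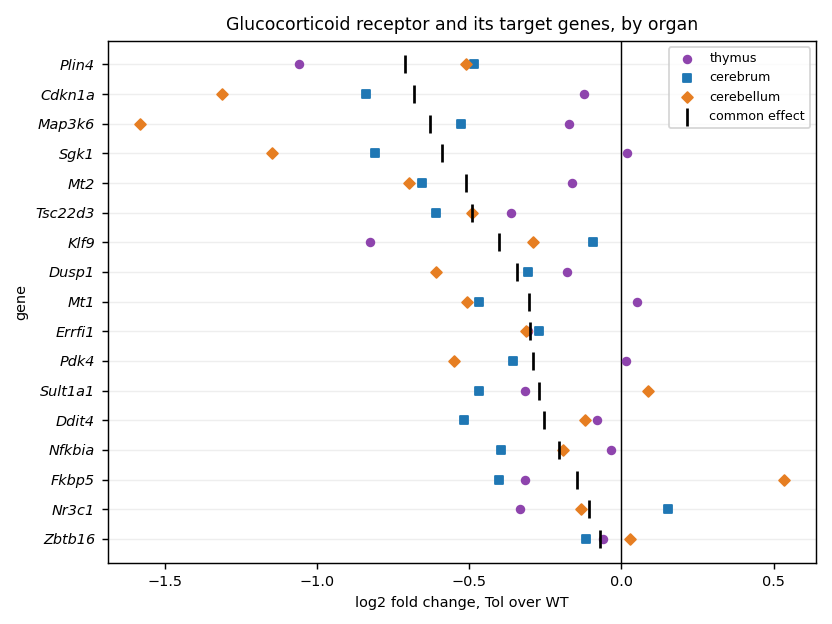
Log2 ratio of Tol to WT (x axis) for the glucocorticoid receptor gene Nr3c1 and 16 target genes (y axis), as a point for each organ and a tick for the common effect. All 17 ticks lie left of 0, between -0.71 and -0.070. Thymus points lie nearest 0 for Sgk1, Mt1 and Pdk4, and the cerebellum point of Fkbp5 lies at 0.53, which rests on the library labelled cerebellum Tol 2.

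Irs2, Spry4, Fosl2, Sik2, Prr5, Gpt2 and Pprc1 fell as well, again as single genes and not as a list. Irs2, which couples the insulin receptor to its kinases, fell by 0.44, and its organ effects were -0.17 in the thymus, -0.74 in the cerebrum and -0.35 in the cerebellum. Spry4, a feedback inhibitor of receptor tyrosine kinase signalling, fell by 0.63, with organ effects of -0.20 in the thymus, -0.83 in the cerebrum and -0.74 in the cerebellum. Fosl2, an AP-1 transcription factor, fell by 0.70. In the cerebrum, Fosl2 was at 60.8, 55.98, 67.7 and 55.96 CPM in Tol and 156, 142, 61.9 and 136 CPM in WT. The library numbered WT 3 lay within the Tol range there, as it nearly did for Irs2, where it was at 85.95 CPM and the Tol libraries were at 74.3, 74.8, 81.2 and 60.6 CPM. Sik2, a salt-inducible kinase, fell by 0.33, and Prr5, a subunit of the mTORC2 complex, fell by 0.43. Of metabolic genes, Gpt2, the mitochondrial alanine aminotransferase, fell by 0.36 and Pprc1, a PGC-1-related coactivator of mitochondrial genes, also fell by 0.36. The edgeR adjusted p of these 7 genes lay between 0.0239 and 0.0444. Without the library labelled cerebellum Tol 2, Irs2 and Pprc1 no longer passed, at edgeR adjusted p of 0.0741 and 0.0518.

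The remaining genes that fell were Zfp276 (-0.42), Trim65 (-0.43), Trim16 (-0.44), Txlna (-0.25), Cables1 (-0.39) and Ubxn4 (-0.20). Trim65 and Trim16 encode ubiquitin ligases, Txlna a syntaxin-binding protein and Cables1 a partner of cyclin-dependent kinases. Ubxn4 encodes a membrane protein of the endoplasmic reticulum that takes part in the degradation of misfolded proteins. Ubxn4 was at 92.4, 90.03, 97.1 and 89.5 CPM in Tol thymus and 118, 115, 107 and 117 CPM in WT thymus, without overlap, and the cerebrum groups overlapped at 58.4 to 69.9 and 65.2 to 74.1 CPM. Its edgeR adjusted p was 0.0444, and 0.0798 without the library labelled cerebellum Tol 2. Zfp276, Pprc1 and Sik2 overlap other genes on the opposite strand, and Trim65 and Trim16 overlap Trim47 and Fbxw10 on their own strand. Cables1, Ptpn12 and Trim16 also lost their call without that library.

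Of the 28 genes, 2 were higher in Tol mice. Fbxl4, an F-box protein of mitochondria, rose. Fbxl4 in the thymus reached 16.1, 19.1, 15.6 and 18.1 CPM in Tol libraries and 9.77, 10.1, 10.4 and 11.1 CPM in WT libraries. The cerebrum gave 16.3, 19.7, 19.00 and 16.6 CPM in Tol and 15.6, 14.6, 16.8 and 13.9 CPM in WT libraries. Fbxl4 levels in the cerebellum were 19.3 and 25.5 CPM in Tol and 17.05, 17.4, 14.9 and 16.5 CPM in WT. The thymus and cerebellum groups were apart, and those of the cerebrum overlapped. The common effect was 0.47 ± 0.075 (SE) (edgeR adjusted p = 0.00675), with 0.73 in the thymus, 0.24 in the cerebrum and 0.47 in the cerebellum, which differed between organs at an unadjusted p of 0.00830. Carf, a calcium-responsive transcription factor, rose by 0.30 with an SE of 0.061 (edgeR adjusted p = 0.0444) and overlaps Wdr12 on the opposite strand. Carf was at 22.04, 20.9, 17.03 and 20.3 CPM in Tol thymus and 14.6, 15.05, 14.8 and 14.4 CPM in WT thymus, without overlap. With the library labelled cerebellum Tol 2 left out, Fbxl4 stayed at 0.44 (edgeR adjusted p = 0.0193) and Carf went to 0.31 (edgeR adjusted p = 0.0518).

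RefSeq promoters in GRCm38.p6, from 250 bases before to 50 after a start site, were on hand for 19 of the 28 genes, in 31 windows. They were searched on both strands for the E-box CACGTG that CLOCK and ARNTL bind, the cyclic AMP response element TGACGTCA, a glucocorticoid response element (GNACA and TGTNC with 3 bases between them) and a heat shock element (GAA, TTC and GAA with 2 bases between neighbours). The E-box was present in 4 of the 31 windows (12.9%), those of Per1, Klf15, Irs2 and Txlna, against 7.15% of all windows, or in 4 of the 19 genes against 11.3% of the tested genes with a window. The other 3 motifs were in none of the 31 windows, and in 1.79%, 0.475% and 0.603% of all windows. The windows of Per1, Klf15 and Irs2, of which Klf15 holds 3 E-boxes, are given 5′ to 3′ on the strand of the gene with the E-box in capitals.
Per1 (chr11:69098699-69098998, plus strand): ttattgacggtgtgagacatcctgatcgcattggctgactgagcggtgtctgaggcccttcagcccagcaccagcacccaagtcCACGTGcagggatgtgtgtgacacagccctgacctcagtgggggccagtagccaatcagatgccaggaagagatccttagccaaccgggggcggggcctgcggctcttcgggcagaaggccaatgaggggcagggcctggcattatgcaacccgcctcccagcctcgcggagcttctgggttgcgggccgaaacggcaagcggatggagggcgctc
Klf15 (chr6:90462326-90462625, plus strand): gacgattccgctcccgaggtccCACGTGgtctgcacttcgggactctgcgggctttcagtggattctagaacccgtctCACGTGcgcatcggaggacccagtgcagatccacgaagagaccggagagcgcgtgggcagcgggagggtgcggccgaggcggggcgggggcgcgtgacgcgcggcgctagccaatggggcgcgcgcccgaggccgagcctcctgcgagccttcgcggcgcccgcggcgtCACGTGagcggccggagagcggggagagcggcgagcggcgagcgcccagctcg
Irs2 (chr8:11008880-11009179, minus strand): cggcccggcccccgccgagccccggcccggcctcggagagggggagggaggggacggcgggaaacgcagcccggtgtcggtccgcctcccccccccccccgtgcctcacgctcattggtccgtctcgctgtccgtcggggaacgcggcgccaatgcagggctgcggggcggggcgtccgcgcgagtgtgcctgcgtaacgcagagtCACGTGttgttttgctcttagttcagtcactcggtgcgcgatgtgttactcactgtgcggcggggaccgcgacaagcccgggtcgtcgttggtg

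None of the genes on the 5 lists of stress responses and protein breakdown passed the common test. Of 22 chaperone and co-chaperone genes of heat shock factor 1, all tested, 0 were called by the edgeR test, 21 had negative effects, 8 had an unadjusted p under 0.05 and all 8 were negative. These are 95.5% and 36.4% of the list, against 47.9% and 12.6% of all genes. Their median effect was -0.11, with -0.19 in the thymus, -0.063 in the cerebrum and -0.046 in the cerebellum. Bag3, a co-chaperone of HSP70, had the lowest p, with organ effects of -0.24 in the thymus, -0.28 in the cerebrum and -0.69 in the cerebellum and an edgeR adjusted p of 0.101. Hsph1 and Hspa8, of the HSP110 and HSP70 families, had effects of -1.22 and -0.57 in the thymus, against -0.062 and -0.090 in the cerebrum. Of 24 genes of the unfolded protein response in the endoplasmic reticulum, 0 were called, 22 had negative effects, and 7 had an unadjusted p under 0.05, all negative (91.7% and 29.2% of the list). Hspa5, the chaperone BiP, had a common effect of -0.18 (edgeR adjusted p = 0.229), Xbp1 one of -0.18 (0.238) and Pdia4, a disulfide isomerase, one of -0.17 (0.219). The median of this list was -0.068. Of 17 tested targets of PERK and ATF4, 0 were called and 12 had negative effects, and Atf3 had the lowest p at -0.88 (edgeR adjusted p = 0.108). The 32 proteasome subunit genes had a median of 0.057, with 29 positive effects, 4 of them at an unadjusted p under 0.05, and 0 calls. For the 19 ubiquitin and autophagy genes the median was -0.0078, with 0 calls and 2 unadjusted. DESeq2 applied to the same counts gave Bag3 an adjusted p of 0.0129 and Atf3 one of 0.0202, both negative. In edgeR the common effect on Bag3 went from -0.37 to -0.29 without the library labelled cerebellum Tol 2, and that on Atf3 from -0.88 to -0.81. Leaving out the library labelled cerebellum Tol 2, edgeR still called 0 genes of these 5 lists, with 9 and 6 at an unadjusted p under 0.05 in the first 2.

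**Figure D4:**
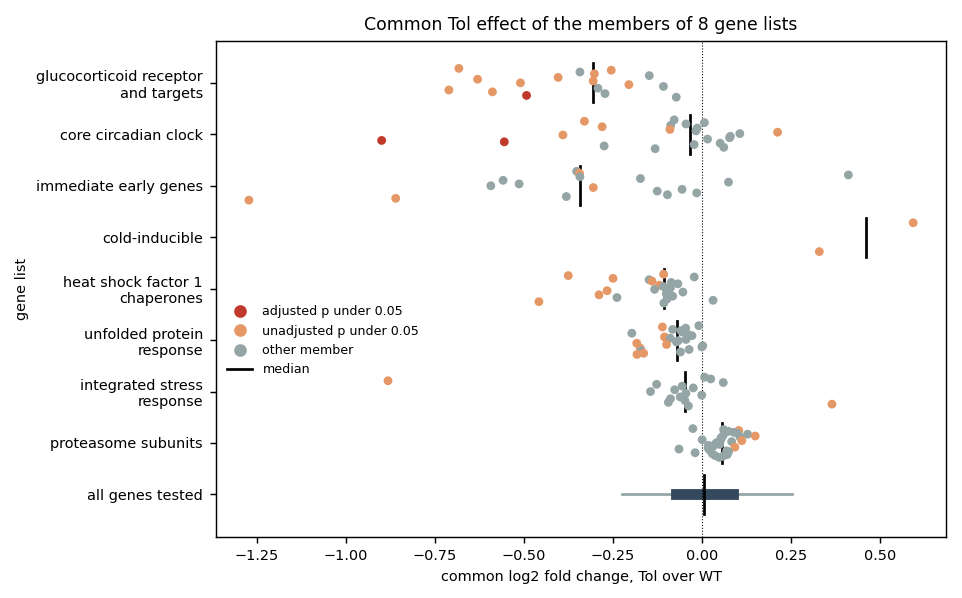
Common log2 ratio of Tol to WT (x axis) of the members of 8 gene lists (y axis), with the median of each list as a black line and colour for an adjusted or only an unadjusted p under 0.05. The lowest row gives all 14086 genes, as the 5th to 95th percentile (thin) and the quartiles (thick). The glucocorticoid list lies wholly left of 0 with a median of -0.30, and the chaperone and unfolded protein lists lie mostly left of 0.

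The other lists held few or no calls. Of 19 immediate early genes, 17 were tested and 0 called, with 15 negative effects, a median of -0.34 and 4 unadjusted. Their medians were -0.12 in the thymus, -0.71 in the cerebrum and 0.19 in the cerebellum. For Egr1, Egr2, Egr3, Fosb, Junb and Arc, only the library labelled cerebellum Tol 2 lay above every WT cerebellum library. Egr3 was at 15.4 CPM there, 1.06 CPM in the other Tol library and 0.80 to 10.5 CPM in WT. Btg2 and Ier5 lay above WT in both Tol libraries, and Ier2, Jun and Nr4a2 were lower in Tol 2. The cerebellum median without that library was not tested, and the common median without it was -0.35. Nr4a3, a nuclear receptor induced by activity, had the lowest p of the list. Nr4a3 was at 31.6, 16.5, 49.8 and 22.6 CPM in Tol and 135, 85.7, 42.8 and 140.0 CPM in WT cerebrum, which overlap, and its common effect was -1.27 ± 0.30 (SE) (edgeR adjusted p = 0.0823). The cold-inducible genes Cirbp and Rbm3 had positive effects of 0.59 and 0.33 (edgeR adjusted p = 0.0694 and 0.361). Cirbp was at 63.5, 109.8, 55.9 and 99.1 CPM in Tol and 37.96, 40.5, 53.7 and 35.9 CPM in WT thymus, without overlap. The lists of interferon-induced genes, MHC class I presentation, NRF2 and p53 targets, cytosolic ribosomal proteins, nuclear and mitochondrial subunits of oxidative phosphorylation, cholesterol synthesis and cell cycle held 0 calls, with medians between -0.037 and 0.11. Of markers of other cell types, 0 were called among the tested members for red blood cells (5), endothelium (6), macrophages and microglia (5), choroid plexus (3) and oligodendrocytes (3). No adipocyte, skeletal muscle or B cell marker passed the count filter in all 3 organs. The choroid plexus members had a median of -3.26 in the cerebellum, where their part in the effects was not tested.

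Whether the Tol effect differed between organs was tested with both genotype by organ terms together. No gene passed by edgeR (0%), the lowest adjusted p was 0.0966 and 1978 genes had an unadjusted p under 0.05, among them 5 of the 28, Per1, Fbxl4, Irs2, Ctnnd1 and Pprc1. When the library labelled cerebellum Tol 2 was dropped, 4 genes passed, of which Srf, encoding serum response factor, had the lowest p. DESeq2 called 172 genes for the same question. Banp, Ildr2 and Col1a1 had unadjusted p between 5.70e-04 and 9.38e-04 by organ. Banp, a nuclear matrix protein, had effects of -1.12 in the thymus, 0.0093 in the cerebrum and -0.87 in the cerebellum. Its common effect of -0.65 did not pass (edgeR adjusted p = 0.0828). In the cerebellum, Banp was at 10.7 CPM in the library labelled Tol 2, 21.7 CPM in the other Tol library and 24.6 to 35.4 CPM in WT. Without the library labelled cerebellum Tol 2 the common effect on Banp was -0.56. Ildr2 had -1.81 in the thymus, 0.24 in the cerebrum and 1.47 in the cerebellum. In the cerebellum, Ildr2 was at 86.2 CPM in the library labelled Tol 2 and at 16.9 CPM in the other Tol library, which lay within the WT range of 9.67 to 31.6 CPM. Without the library labelled cerebellum Tol 2 the common effect on Ildr2 turned from 0.16 to -0.32 (edgeR adjusted p = 0.636). Col1a1, beside which Tol was inserted, had -0.57 in the thymus, 0.92 in the cerebrum and 1.66 in the cerebellum and no common effect at the threshold (edgeR adjusted p = 0.418). In the cerebellum, Col1a1 was at 73.1 CPM in the library labelled Tol 2, 24.04 CPM in the other Tol library and 13.4 to 17.6 CPM in WT. Its common effect was 0.56, and 0.21 without the library labelled cerebellum Tol 2 (edgeR adjusted p = 0.741). Of 46 genes around Col1a1, 29 were tested and 0 called, with 16 negative effects and a median of -0.0068. Tmem92 and Sgca, the genes next to it, did not pass the count filter in all 3 organs.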

How the data were processed

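RNA-seq of thymus, cerebrum and cerebellum was analysed in 22 libraries. Per the labels, the authors used Salmon 0.14.1 and edgeR 3.9 with GRCm38, and the deposited values are estimated counts of each gene, in whole numbers, in 3 tables, with the Tol transcript as an added row. Expression was compared from these counts as deposited, with the tables joined by gene identifier (34585 entries each, 0 columns left unused). Single-end reads came from a stranded polyA kit, and the strand setting of the counting is not given in the sources used here.

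In R 4.3.3 with edgeR 4.0.16, counts were normalised by TMM, genes had to pass filterByExpr in each organ (16249, 15597 and 16663 genes passed in thymus, cerebrum and cerebellum, and 14086 in all 3), and a quasi-likelihood F test of genotype was run in a model of organ plus genotype. P-values were adjusted by Benjamini-Hochberg over all genes, with the Tol transcript left out, and called under 0.05. Differences between organs were tested by the 2 genotype by organ terms. CPM used TMM-scaled totals. Alternatives used DESeq2 1.42.0 and limma 3.58.1. The script was tested on simulated data.

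Named genes were the 2 higher and 12 lower calls with the lowest p, the largest effects, the lowest p of each list with up to 3 further passing members, and Banp, Ildr2, Col1a1 and its neighbours. Further calls and list members are named with their values already known. The members and lists were chosen with earlier results of these data known. P-values measure the spread between libraries and not between mice, since the labels do not say which libraries share a mouse. Libraries of a group differed by more than counting noise (the chi-square statistic over its degrees of freedom lay between 4.98 and 208), and each was counted once. Symbols and positions are from GENCODE vM21. The cerebellum had 2 Tol and 4 WT libraries, and all of them were analysed. The cerebrum was checked by 3 members of its marker list, and the rest of that list is not reported here.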

Additional observations from a re-analysis of the deposited data

Results flagged for a closer look

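Ildr2 had opposite effects in 2 organs, with Tol libraries below all WT libraries in the thymus (-1.81 on the log2 scale) and above all of them in the cerebrum (0.24). The difference between organs had an unadjusted p of 5.70e-04 in edgeR and did not pass adjustment over all genes.

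Over 180 groups of 4 libraries, 9 held a library with a gap to its neighbours beyond Dixon's 95% limit, and chance flags about 1 group in 20. Among total counts, Tol 1 of the thymus was at 34776973 with the other Tol thymus libraries at 18519829 to 20527399, WT 4 of the thymus was at 29145285 and Tol 4 of the cerebrum was at 14543698. P4ha1 was at 35.2 CPM in the thymus library Tol 3, against 27.7 to 28.9 CPM in the other Tol thymus libraries. The cerebrum library WT 3 held Irs2 at 86.0 CPM, against 129 to 136 CPM in the other WT libraries. The cerebellum library WT 2 held Gpt2 at 80.9 CPM and Trim16 at 8.85 CPM, above the other WT libraries at up to 61.2 and 6.68 CPM. The Tol transcript was at 0.125 CPM in the cerebrum library WT 3 and at 0 in the cerebellum library WT 4, both under the level that 3 counts give.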

How the results depend on the processing

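The count of genes with a common Tol effect, 28 in the report (26 lower, 2 higher), depended on the test and on the organs used. DESeq2's Wald test called 212 genes (157 lower) and limma-voom with library quality weights 247 (134 lower), and both included all 28. With no filter on low counts 16 genes passed, and 7 passed with an absolute log2 fold change over 0.5 required. With mouse as a random block across organs, taken from the numbers, limma-voom called 45 genes, 27 of them among the 28. The correlation it estimated within a number was -0.0011, so the block carried almost no weight. This fit also differs from the report in its test, so its count does not measure the effect of shared mice. Limma on 1 value per presumed mouse called 0 genes, with 1843 at an unadjusted p under 0.05. Without the thymus 3 passed and without the cerebrum 0 (edgeR, 2134 at an unadjusted p under 0.05), while without the cerebellum 20 passed, 9 of them among the 28. Other scalings, count filters, robust moderation and a GC and length trend gave 22 to 34 genes. Keeping the Tol transcript in the adjustment, an alternative chosen after seeing the data, gave 32.

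Leaving out 1 library at a time gave between 14 and 45 genes. The lowest counts came without cerebrum Tol 1 (14), thymus Tol 2 (16), thymus Tol 4 (18), thymus WT 1 (18) or cerebrum Tol 2 (18), and the highest without cerebellum Tol 1 (45). In all 22 of these fits, 12 genes passed: Acer2, Mid1, Plat, P4ha1, Tns3, Fbxl4, Gm47283, Per1, Zfp276, Trim65, Sgms1 and Klf15. No common effect of the 28 changed sign in any alternative.

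Tol and WT libraries share numbers within an organ, but the deviations of same-numbered pairs correlated between -0.25 and 0.68 and did not pair them. With a replicate block 3 genes passed, Acer2, Plat and P4ha1. Same-numbered libraries of 2 organs correlated between -0.13 and 0.099 in Tol and between -0.0038 and 0.13 in WT. Whether such libraries share a mouse was not tested.

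For the difference between organs, 0 genes were called by edgeR in the report. DESeq2 called 172, and without the cerebellum 41 passed. Leaving out 1 library gave 0 to 2647, with 2647 without cerebellum Tol 1, which leaves the library labelled cerebellum Tol 2 alone, 69 without thymus Tol 1, 4 without cerebellum Tol 2, 2 without thymus Tol 3, and 1 each without thymus WT 2 or cerebrum Tol 3. Where 1 Tol cerebellum library was left, it was assumed to vary like the other groups. The causes of these changes were not tested. Between 14543698 and 34776973 counts per library limit low genes, and the 2 Tol cerebellum libraries limit that organ.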

Other observations

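Some lists had medians that differed in sign between organs. The 80 tested cytosolic ribosomal protein genes had a median log2 fold change of 0.32 in the thymus, -0.17 in the cerebrum and 0.22 in the cerebellum. Their common median was 0.11, with 6 of the 80 effects negative. In the common fit 0 of them were called by edgeR and 9 had an unadjusted p under 0.05, while without the cerebrum libraries 66 had one, with 0 called. The 21 genes of cholesterol synthesis had medians of 0.32, -0.11 and 0.089 in the same order and a common median of 0.080, with 3 negative effects, 0 called and 0 at an unadjusted p under 0.05. The 80 nuclear subunits of oxidative phosphorylation had medians of 0.30, -0.085 and -0.00080 and a common median of 0.076, with 9 negative effects.

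Of 13 mitochondrially encoded subunits, mt-Nd3 had the lowest p. It was at 71.7, 113, 63.6 and 130.1 CPM in Tol thymus and at 172, 128, 109 and 203 CPM in WT thymus. In the cerebrum, Tol libraries were at 302, 407, 241 and 996 CPM and WT libraries at 1340.0, 911, 692 and 838 CPM. Its common effect of -1.05 missed the threshold at an edgeR adjusted p of 0.0999, and of the 13 genes 1 was lower and 1, mt-Co2 (0.27), was higher at an unadjusted p under 0.05. In the p53 list, Cdkn1a was at 19.4 and 6.88 CPM in the Tol cerebellum and 30.1 to 35.8 CPM in the WT cerebellum.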
